A study of Homo sapiens with 6 samples.

Results

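The HMGA, LIN28B and IGF2BP genes are oncofetal genes of the let-7 axis, that is, genes active in the embryo and in many tumours whose transcripts carry target sites of the let-7 microRNAs. The 6 members, HMGA1, HMGA2, LIN28B, IGF2BP1, IGF2BP2 and IGF2BP3, were taken by symbol from the 36459 genes of the deposited gene table. All 6 were listed, 5 of them had counts and passed the filter on low counts, and LIN28B was at 0 in every library. Bulk RNA-seq compared 3 libraries of the parental line PC9, human lung adenocarcinoma cells with an activating EGFR mutation, with 3 libraries of PS(PC9), the persister cells (PS) that survive 6 days of exposure to the EGFR inhibitor erlotinib at 15 µM. Each PS(PC9) library is a pool, made from 9 cultures in all, whereas the PC9 libraries are 3 single cultures, so the spread within PS(PC9) is that between pools. No transgene, deletion or second agent was labelled in either condition, and the labels name no vehicle for the parental cells. Levels are given in CPM, the count of a gene scaled to a common library total, with library totals normalized by the trimmed mean of M values (TMM), and differences as log2 fold changes of PS(PC9) relative to PC9. They were tested by quasi-likelihood in edgeR, and p-values were adjusted after Benjamini and Hochberg over all genes tested, with a limit of 0.01.

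The let-7 microRNAs appear as cells differentiate and bind 3′ UTRs through a short seed, which lowers the level and the translation of the bound transcripts. LIN28B and its relative LIN28A bind let-7 precursors and block their maturation, and LIN28B is itself a let-7 target, so each side of the loop restrains the other. HMGA1 and HMGA2 are small chromatin proteins that bind AT-rich DNA through AT-hooks. The IGF2BP proteins bind mRNAs, many of them carrying N6-methyladenosine (m6A), and protect them from decay. High HMGA2, LIN28B or IGF2BP levels are a known feature of poorly differentiated tumours, lung adenocarcinoma among them.

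The let-7 family is shown first because its seed is what the members share. RefSeq (GRCh38.p14) held 12 genes of the family with 9 different mature sequences, and all of them had the same bases 2 to 8, set in capitals in these 4 examples.

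hsa-let-7a-5p: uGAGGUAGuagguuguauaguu
hsa-let-7b-5p: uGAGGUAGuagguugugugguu
hsa-let-7d-5p: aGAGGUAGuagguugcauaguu
hsa-miR-98-5p: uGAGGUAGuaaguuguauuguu

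The 4 differ outside the seed only, and a transcript that pairs with one seed pairs with all. The poly-A libraries measured mRNA, so mature let-7 was not measured here.

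Each member had at least 1 complement of the seed, CTACCTC, in the 3′ UTR of the transcript shown (GENCODE 44 annotation of GRCh38). This was the member's transcript with the most counts, except for LIN28B, which had no counts. LIN28B-201 is shown for it, with 4 matches, while LIN28B-203 holds 1 and LIN28B-202 holds 0. One 30-base window per member, the first site of its UTR, is shown with the match in capitals, written 5′ to 3′ on the strand of the gene.

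HMGA2-204, site 1 of 4: gggcgccaacgttcgatttCTACCTCagca
LIN28B-201, site 1 of 4: ctttacccggttgcaaagtCTACCTCatgc
IGF2BP1-201, site 1 of 4: atgctgtgtgcgaagtaaaCTACCTCaagg
IGF2BP2-202, site 1 of 1: gaaaaacacacagaagaagCTACCTCaggt
IGF2BP3-201, site 1 of 1: aacgtgcatttttactcaaCTACCTCaggt
HMGA1-201, site 1 of 1: tttttcctctgttcacaaaCTACCTCtgga

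All windows lay within a single exon, in the 3′ UTR. The HMGA2 window is at chr12:65963294-65963323 on the plus strand, that of LIN28B at chr6:105078808-105078837 on the plus strand, and that of IGF2BP1 at chr17:49051057-49051086 on the plus strand. The IGF2BP2 window is at chr3:185644217-185644246 and the IGF2BP3 window at chr7:23311792-23311821, both on the minus strand, and the HMGA1 window is at chr6:34245825-34245854 on the plus strand. HMGA2, LIN28B and IGF2BP1 held 4 matches each in UTRs of 2999, 4549 and 6701 bases. IGF2BP2, IGF2BP3 and HMGA1 held 1 each in 2401, 2153 and 1347 bases. Counting matches to the 6-base core TACCTC, HMGA2 held 8, IGF2BP1 6, LIN28B 5, IGF2BP2 3 and IGF2BP3 and HMGA1 1 each. The windows of IGF2BP2 and IGF2BP3 end in the same 11 bases, CTACCTCaggt. The capitals among them are the match, which every window holds by selection.

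**Figure D1:**
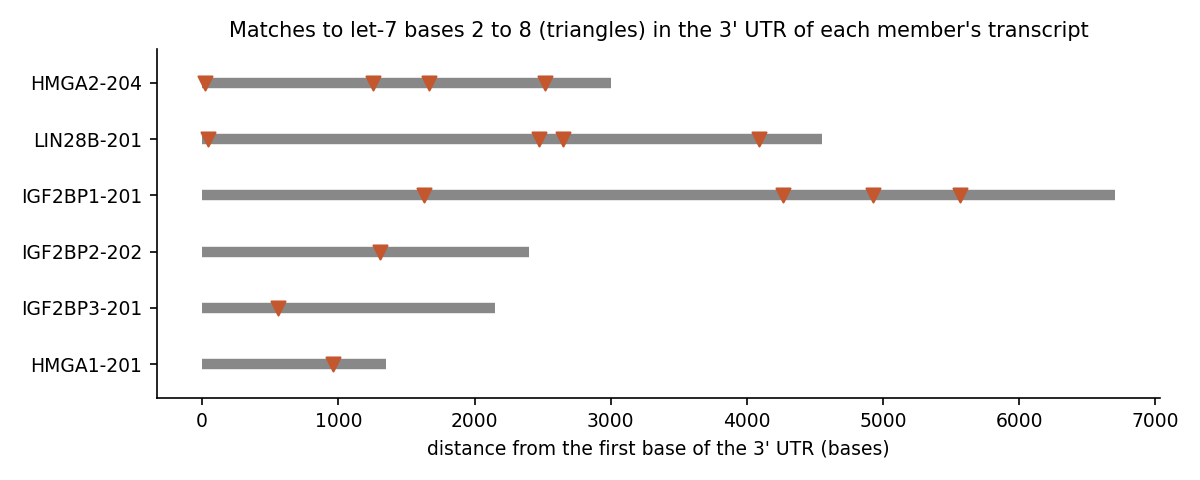
Positions of the matches to let-7 bases 2 to 8 in the 3′ UTR, in bases from the first base of the UTR. Each member is drawn as its transcript with the most counts, and LIN28B, which had no counts, as LIN28B-201. Grey bars are the annotated UTRs and triangles the matches. HMGA2, LIN28B and IGF2BP1 have 4 matches each, and the first ones of HMGA2 and LIN28B lie 21 and 44 bases into the UTR.

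All 5 expressed members fell in PS(PC9), HMGA2 and HMGA1 by the most and the IGF2BP genes by less. In each of the 5 the 3 PS(PC9) libraries lay below the 3 PC9 libraries. Of 14626 genes tested 56.8% passed the limit, 28.1% as lower and 28.7% as higher. The groups did not overlap in 71.3% of them, and in 35.7% all PS(PC9) libraries lay below all PC9 libraries, so that changes in both directions were common. The median log2 fold change of the 5 was −0.64, beside −0.0061 over all genes tested. In bulk RNA, fewer cells that express a gene and less of its RNA per cell cannot be told apart.

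HMGA2 (ENSG00000149948, chr12:65824460-65966291, plus strand), the embryonic AT-hook protein that is silent in most adult tissues, had the largest fold change of the members. Its level was 38.3, 36.6 and 35.9 CPM in PC9 replicates 1, 2 and 3 and 6.92, 7.53 and 6.73 CPM in PS(PC9) replicates 1, 2 and 3. The replicates of each condition were close together and the conditions were far apart. The mean dropped from 36.9 ± 1.27 to 7.06 ± 0.417 CPM (SD, n = 3 each), to 19.1% of the PC9 level. The log2 fold change was −2.39 (SE 0.0628, edgeR adjusted p = 2.2e-10), and only 0.991% of the genes tested had a change as low or lower. The counts behind these levels were 1319, 1247 and 1207 in PC9 and 202, 237 and 230 in PS(PC9).

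HMGA1 (ENSG00000137309, chr6:34236873-34246231, plus strand), the AT-hook protein that proliferating cells also make, was among the most abundant transcripts of PC9. It ranked 11th of all genes tested by mean CPM in PC9 and 93rd in PS(PC9). Its level was 2512, 2835 and 2686 CPM in the PC9 libraries and 864, 955 and 945 CPM in the PS(PC9) libraries. PC9 replicate 1 was the lowest of the parental libraries and still far above every persister library. The mean dropped from 2678 ± 161 to 921 ± 49.8 CPM (SD, n = 3 each), with a log2 fold change of −1.54 (SE 0.0524, edgeR adjusted p = 1.33e-09), and 2.85% of the genes tested had a change as low or lower.

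LIN28B (ENSG00000187772, chr6:104936616-105083332, plus strand), the block on let-7 maturation, had a count of 0 in all 6 libraries and in each of its 3 listed transcripts. With 3 counts as the limit that a count of 0 allows, its level was below 0.0872 to 0.103 CPM, depending on the library, for counting error only. No fold change was therefore computed. LIN28A had 2, 3 and 3 counts in PC9 and 2, 0 and 4 in PS(PC9), at about the same limit. TRIM71, a let-7 target and RNA-binding protein of the early embryo, had at most 2 counts per library.

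IGF2BP2 (ENSG00000073792, chr3:185643130-185825042, minus strand), the member of its family that adult tissues also express, fell the most of the 3 IGF2BP genes. Its level was 228, 219 and 225 CPM in PC9 and 136, 152 and 141 CPM in PS(PC9). PS(PC9) replicate 2 was the highest persister library and lay well below every parental one. The mean dropped from 224 ± 4.79 to 143 ± 8.19 CPM (SD, n = 3 each), with a log2 fold change of −0.64 (SE 0.0450, edgeR adjusted p = 3.48e-07).

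IGF2BP3 (ENSG00000136231, chr7:23310209-23470491, minus strand), an oncofetal RNA-binding protein, was at 247, 231 and 236 CPM in PC9 and at 180, 179 and 170 CPM in PS(PC9). The spread within each condition was small beside the difference between them. Its mean dropped from 238 ± 7.92 to 176 ± 5.15 CPM (SD, n = 3 each), with a log2 fold change of −0.43 (SE 0.0394, edgeR adjusted p = 2.81e-06). The coding gene MALSU1 overlaps IGF2BP3 on the other strand, and whether counting used strand is not given in the sources used here. MALSU1 had 1006 to 1249 counts per library.

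IGF2BP1 (ENSG00000159217, chr17:48997385-49056145, plus strand), the family member that binds the MYC coding region, was at 65.0, 70.9 and 69.4 CPM in PC9 and at 55.6, 51.3 and 55.1 CPM in PS(PC9). Its groups were the closest of the 5, with PC9 replicate 1 at 65.0 and PS(PC9) replicate 1 at 55.6 CPM as nearest libraries. The mean dropped from 68.4 ± 3.07 to 54.0 ± 2.36 CPM (SD, n = 3 each), to 78.9% of the PC9 level. Its log2 fold change of −0.34 (SE 0.0496, edgeR adjusted p = 0.000107) was passed in size by many genes, since 25.6% of those tested had a change as low or lower. With a fold change above 2 as a further condition, 2 members, HMGA1 and HMGA2, were left.

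**Figure D2:**
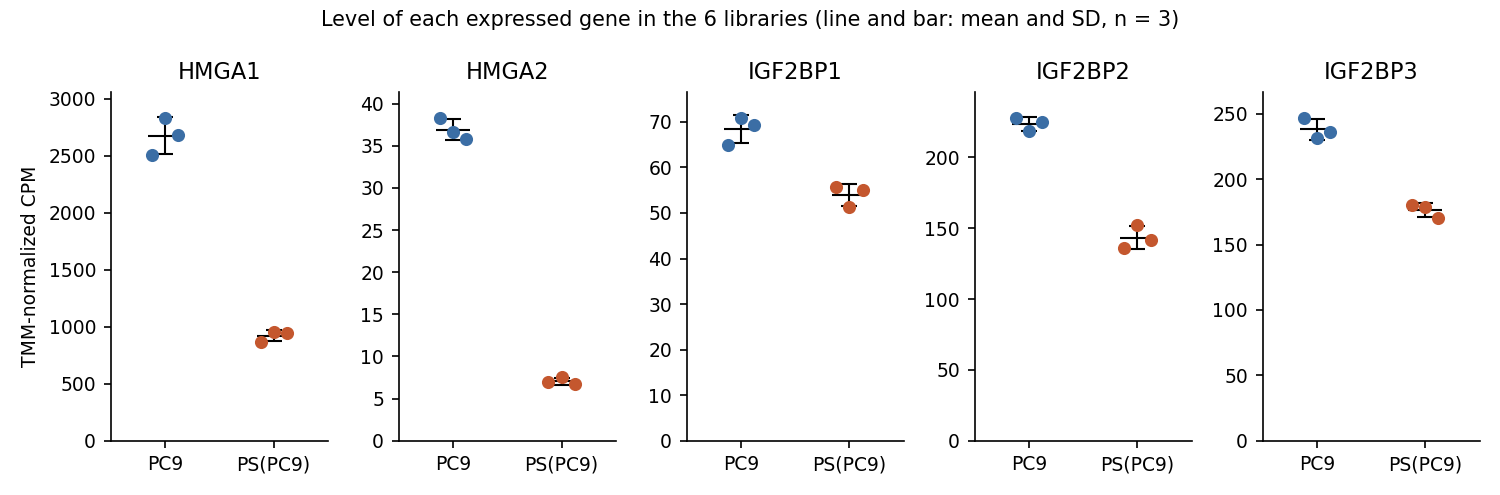
Level of each expressed member in the 6 libraries, in TMM-normalized CPM on axes that start at 0. Points are libraries (blue, PC9; red, PS(PC9)) and the black line and bar are the mean and SD of 3 libraries. In every panel the 3 PS(PC9) points lie below the 3 PC9 points, with HMGA2 at 6.73 to 7.53 against 35.9 to 38.3 CPM.

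**Figure D3:**
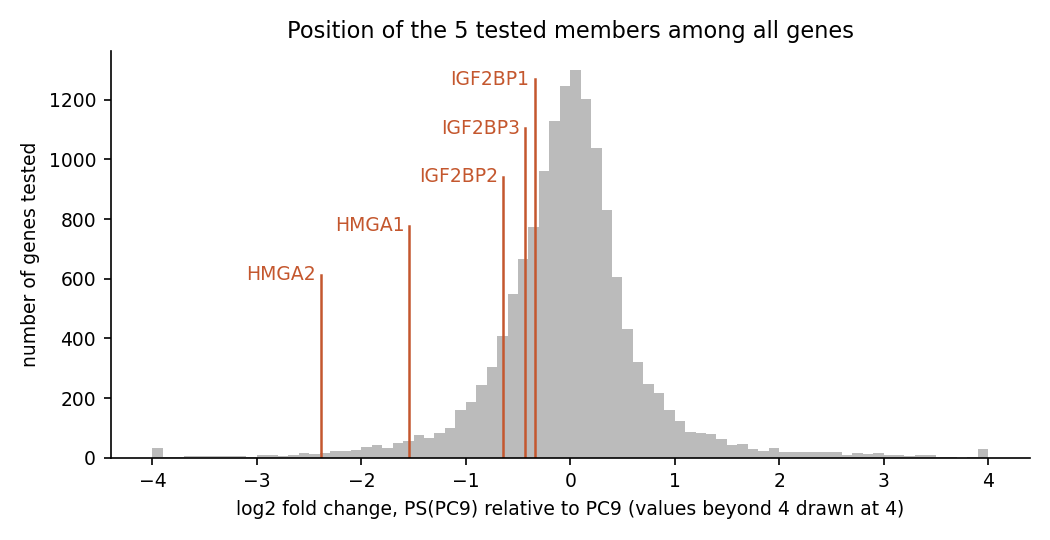
Histogram of the log2 fold changes of all 14626 genes tested, PS(PC9) relative to PC9, with values beyond 4 drawn at 4. Vertical lines mark the 5 members, whose heights carry no value. HMGA2 at −2.39 and HMGA1 at −1.54 stand in the lower tail, and IGF2BP2, IGF2BP3 and IGF2BP1 at −0.64, −0.43 and −0.34 in the lower shoulder of the distribution.

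To compare levels between genes, TPM were computed, in which transcript counts are divided by annotated transcript lengths and scaled to a common total. In PC9 the order was HMGA1 (2897 ± 143 TPM), IGF2BP3 (150.5 ± 5.27), IGF2BP2 (111.7 ± 3.86), IGF2BP1 (19.33 ± 0.914) and HMGA2 (17.65 ± 0.609), each as mean and SD of 3 libraries. HMGA2 and IGF2BP1 were neighbours in PC9, at 16.96 to 18.11 and 18.5 to 20.31 TPM, close together but without overlap. Their order in PC9 rested on short IGF2BP1 transcripts with few counts, such as IGF2BP1-202 (1317 bases, 73, 56 and 77 counts). Per base of the main transcripts, HMGA2-204 (4117 bases, 1300, 1227 and 1187 counts) lay above IGF2BP1-201 (8796 bases, 2134, 2347 and 2230 counts). In PS(PC9) the order was the same, with HMGA1 at 1031 ± 46.8, IGF2BP3 at 115.3 ± 1.81, IGF2BP2 at 76.66 ± 3.07, IGF2BP1 at 14.2 ± 1.26 and HMGA2 at 3.473 ± 0.158 TPM. HMGA2 was by then far below IGF2BP1.

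Members of a family fell by unequal amounts. As a share of the summed TPM of the HMGA genes, HMGA2 made 0.606 ± 0.0332% in PC9 and 0.336 ± 0.0212% in PS(PC9). As shares of the IGF2BP family, IGF2BP2 went from 39.67 ± 0.233% to 37.19 ± 1.32% and IGF2BP3 from 53.46 ± 0.0796% to 55.92 ± 0.726%. The groups did not overlap in these 3 shares, and the exact two-sided permutation p was 0.1 for each, the smallest that 3 against 3 libraries allow. IGF2BP1 held 6.869 ± 0.289% and 6.891 ± 0.602% of its family (exact permutation p = 1). The same was asked of 4 log2 ratios of counts, chosen after the levels were seen. The ratio of HMGA2 to HMGA1 differed by −0.85 between the conditions, that of IGF2BP2 to IGF2BP1 by −0.30 and that of IGF2BP2 to IGF2BP3 by −0.21, each with an exact permutation p of 0.1 and an adjusted p of 0.133 over the 4. The ratio of IGF2BP3 to IGF2BP1 differed by −0.092 (exact permutation p = 0.4, adjusted p = 0.4), within the spread of the libraries. In TPM the share of IGF2BP3 rose and that of IGF2BP1 hardly moved, so which of them fell by more depended on the measure. The main transcripts IGF2BP3-201 and IGF2BP1-201 had log2 fold changes of −0.449 and −0.341, in the order of the gene counts. TPM give more weight to short transcripts with few counts. One of them, IGF2BP1-202, had 73, 56 and 77 counts in PC9 and 40, 10 and 17 in PS(PC9).

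The table listed 55 transcripts of the members, of which 21 were tested. Of these 6 fell and 0 rose, beside 3.91% and 3.89% of 54499 transcripts tested in edgeR, and 0 of the 21 rose at an unadjusted p under 0.05 either. DESeq2 also called 0 higher, and 11 lower. The transcripts that fell were HMGA1-201, HMGA1-203, HMGA1-205, HMGA2-204, IGF2BP2-202 and IGF2BP3-201. IGF2BP1-201, the only IGF2BP1 transcript with more than 100 counts in a library, had a log2 fold change of −0.34 with an edgeR adjusted p of 0.0135 and missed the limit.

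HMGA2 was carried by a single transcript. HMGA2-204, which encodes 109 residues and holds all 4 let-7 matches, took 98.6%, 98.5% and 98.3% of the HMGA2 transcript counts in PC9 and 98.0%, 96.6% and 96.5% in PS(PC9). Shortened HMGA2 transcripts that lose the last exons and with them the let-7 sites are known from tumours with rearrangements of 12q. Here the other 10 listed HMGA2 transcripts had between 0 and 14 counts in a library. The log2 fold change of HMGA2-204 was −2.44 (SE 0.0712, edgeR adjusted p = 3.16e-05).

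HMGA1 is spliced into a coding form of 107 codons and a shorter one of 96, which differ by a stretch between the AT-hooks. The longer form took 90.7%, 83.8% and 84.9% of the coding HMGA1 counts in PC9 and 82.0%, 87.1% and 83.8% in PS(PC9). The conditions overlapped (86.48 ± 3.69% and 84.27 ± 2.58%, exact permutation p = 0.5). HMGA1-201, the main transcript of the longer form, fell by 1.57 on the log2 scale (SE 0.0667, edgeR adjusted p = 9.41e-05), and HMGA1-203, of the shorter form, fell by 1.36 (SE 0.106, edgeR adjusted p = 0.000762).

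In IGF2BP2 the main transcript fell and another did not pass the test. IGF2BP2-202, of 599 codons, was at 179, 188 and 190 CPM in PC9 and 103, 110 and 103 CPM in PS(PC9), and its log2 fold change was −0.82 (SE 0.0432, edgeR adjusted p = 0.000195). IGF2BP2-201, of 556 codons, was at 29.5, 24.6 and 24.8 CPM in PC9 and 23.2, 29.4 and 27.3 CPM in PS(PC9), and its log2 fold change was 0.018 (SE 0.118, edgeR adjusted p = 0.947). Both hold the same let-7 match, and their 3′ UTRs are annotated with 2401 and 1556 bases. IGF2BP2-201 therefore took 12.9%, 11.1% and 10.9% of the IGF2BP2 transcript counts in PC9 and 17.1%, 19.4% and 19.3% in PS(PC9), with no overlap. Its mean share was 11.59 ± 1.11% and 18.61 ± 1.29% (exact permutation p = 0.1, chosen after the values were seen). In the test of transcript usage over all genes (edgeR diffSpliceDGE, Simes p), 0 of the 4 members with several tested transcripts passed the limit, beside 1.93% of 10545 genes, and 1 of the 4, IGF2BP2, had an unadjusted p under 0.05 (adjusted p = 0.0668). The F test of the same fit gave IGF2BP2 an adjusted p of 0.0156. How Kallisto divided reads between these overlapping transcripts carries an uncertainty that enters neither test.

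**Figure D4:**
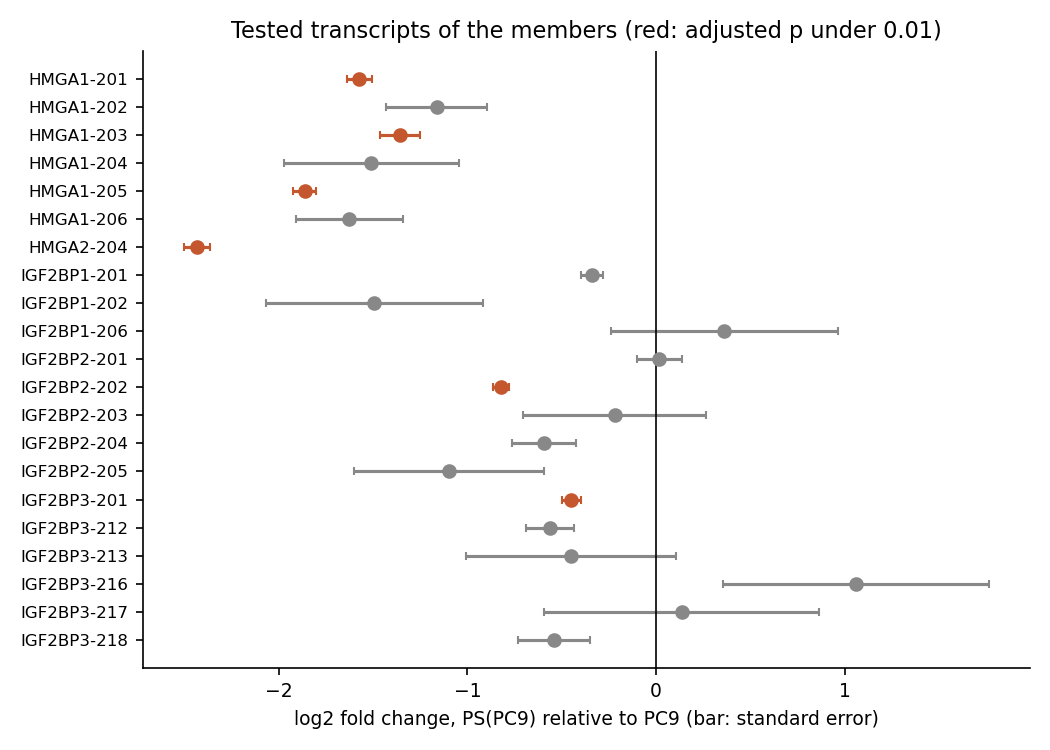
Log2 fold change of each of the 21 tested transcripts of the members, PS(PC9) relative to PC9, with its standard error as a bar. Red points are the 6 transcripts with an adjusted p under 0.01, all of them to the left of 0, and grey points are the rest. IGF2BP2-202 at −0.82 and IGF2BP2-201 at 0.018 are the transcripts of one gene.

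Nearly all member counts stood on transcripts with a let-7 match in the 3′ UTR in both conditions. The share over all members was 94.71 ± 1.82% in PC9 and 95.03 ± 1.00% in PS(PC9), a difference of 0.326 percentage points (exact two-sided permutation p = 0.9). Without PC9 replicate 1 the difference was −0.706 points and without PS(PC9) replicate 1 it was −0.103 points, so it had no stable sign. By gene the means ran from 94.41% (HMGA1) to 98.48% (HMGA2) in PC9 and from 94.77% (HMGA1) to 97.85% (IGF2BP1) in PS(PC9), and the smallest exact permutation p was 0.1, for HMGA2. HMGA1 held most of the member counts, so the share over all members is mainly its own. The difference was 0.358 points for HMGA1, −1.43 for HMGA2, 1.78 for IGF2BP1, −1.01 for IGF2BP2 and −0.109 for IGF2BP3.

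The number of matches did not order the members by their fold change. HMGA2 and IGF2BP1, with 4 matches each, had log2 fold changes of −2.39 and −0.34, and HMGA1 with 1 match had −1.54. Over all genes the 7-base match was counted in the 3′ UTR of the coding transcript with the most counts, an analysis added after the members' values were seen. Of 13195 tested genes with such a UTR, 1363 (10.3%) held at least 1 match. The 1208 genes with 1 match had a median log2 fold change of 0.045, with 24.0% lower and 32.9% higher, and the 11832 genes without a match had a median of −0.0028, with 29.4% lower and 29.9% higher. The 131 genes with 2 matches had a median of 0.026. Median UTR lengths rose with the number of matches, from 988.5 bases for 0 to 2656.5 for 1 and 4537 for 2.

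HMGA2 and IGF2BP1 were 2 of the 24 tested genes with 3 or more matches. In this group 5 genes fell and 10 rose, with a median log2 fold change of 0.18 and a median UTR length of 5311.5 bases. Beside HMGA2 and IGF2BP1, ACP6 (−1.63), NYNRIN (−0.98) and PTAFR (−0.90) fell. The cohesin subunit SMC1A holds 4 matches and rose, with a log2 fold change of 0.33.

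The genes around the members were described in lists written from general knowledge. Lists share genes, and each count is to be read beside the 28.7% of all genes that rose and the 28.1% that fell. Of 21 tested genes of let-7 and Dicer processing, 10 rose and 5 fell (median log2 fold change 0.16). The ubiquitin ligase HUWE1 (0.92), the precursor exporter XPO5 (0.78) and DICER1 (0.47), which cuts the precursor, were among those that rose. Of the Argonaute proteins, which hold the mature microRNA, AGO2 (0.55), AGO1 (0.52) and AGO3 (0.18) rose and AGO4 (−0.55) fell. AGO4, DDX17 (−0.49), a helicase of the Drosha complex, the RNase ZC3H12A (−0.46) and the terminal uridylyltransferases TUT4 (−0.32) and TUT7 (−0.22), which add uridine to let-7 precursors held by LIN28, were the 5 that fell. DIS3L2, the exonuclease that removes such precursors, was at 20.4 to 22.0 CPM in PC9 and 20.8 to 21.6 CPM in PS(PC9), and its log2 fold change was 0.0039 (edgeR adjusted p = 0.955).

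Of 26 tested let-7 targets other than the members, 12 rose and 5 fell (median 0.22). The receptor genes EPHA4 (2.00) and TGFBR1 (1.61) rose the most among those that passed the rule on level. IGF1R, a growth factor receptor, rose by 0.26 and MYC by 0.16 (edgeR adjusted p = 0.00772). The insulin receptor INSR (−0.62), the G1 cyclin CCND1 (−0.27), E2F2 (−0.27), IRS2 (−0.22) and NME6 (−0.18) fell. That count was 2 instead of 5 without PC9 replicate 2, PC9 replicate 3, PS(PC9) replicate 1 or PS(PC9) replicate 2, and 3 without PS(PC9) replicate 3 or in DESeq2.

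For the IGF2BP proteins, the m6A list and the list of partners and bound mRNAs were counted. Of 19 m6A genes 7 rose and 2 fell (median −0.0081). The readers YTHDF1 (0.41) and YTHDF3 (0.39) rose and the methyltransferase METTL3 (−0.31) and the reader HNRNPC (−0.19) fell, and scaling by library size alone gave 4 that fell. Of 19 tested partners and bound mRNAs 9 rose and 6 fell (median 0.12). The helicase DHX9 (0.67) and ACTB (0.50), whose mRNA IGF2BP1 carries, rose, and the cyclin CCND3 (−0.43) and the adhesion receptor CD44 (−0.38) fell. IGF2, the mRNA that gave the family its name, had 1 to 5 counts per library.

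Of 16 tested genes of other high mobility group (HMG) proteins, 4 rose and 7 fell (median −0.11). HMGB3 (0.35) and HMGXB3 (0.33) rose, and TOX2 (−2.55), with an HMG box, and HMGN5 (−1.10), a nucleosome-binding protein, fell. Of 13 tested oncofetal and imprinted genes 6 rose and 3 fell (median 0.64). The largest rise was that of AFP (2.27), the fetal serum protein alpha-fetoprotein, from 24 to 31 counts per library in PC9 to 108 to 135 in PS(PC9). The imprinted genes GRB10 (1.62), an adaptor that restrains insulin receptor signalling, PLAGL1 (1.38), IGF2R (0.88) and PEG10 (0.64) and the oncofetal receptor ROR1 (0.65) rose as well. CEACAM5, SALL4 and MEST (−0.14) fell. CEACAM5, the carcinoembryonic antigen, had 1037, 920 and 935 counts in PC9 and 1, 0 and 1 in PS(PC9), and SALL4 had a log2 fold change of −0.78. The count that fell was 1 without PC9 replicate 3 or without PS(PC9) replicate 1.

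**Figure D5:**
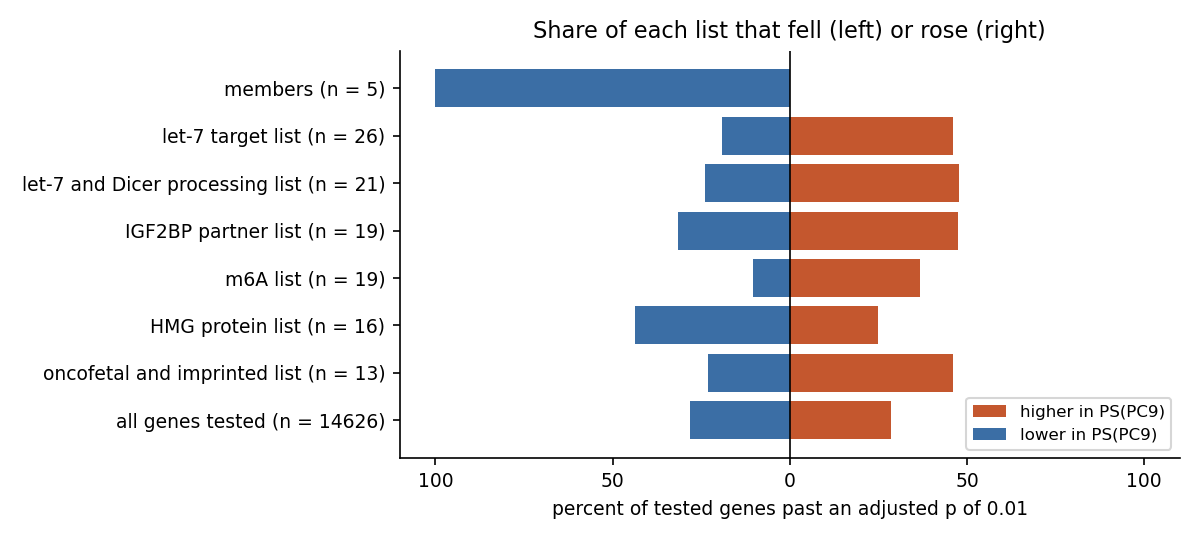
Percent of tested genes with an adjusted p under 0.01 that were lower (blue, left) or higher (red, right) in PS(PC9), for the members, 6 lists of related genes and all genes tested. The numbers of genes tested stand beside the names. Of the members 5 of 5 fell, while the let-7 target list had 12 higher and 5 lower of 26 and all genes 28.7% higher and 28.1% lower.

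Total gene counts were 29476725 to 34893782 per library. Of 7 tested markers of lung epithelium 2 rose (KRT7 and CDH1) and 5 fell, and their summed level was 7523 to 8055 CPM in PC9 and 5938 to 6300 CPM in PS(PC9). NKX2-1, the lineage factor of lung adenocarcinoma, had 0 or 1 count. The proliferation list moved the other way, with 7 of 10 genes higher, the remaining 3 not past the limit and a summed level of 1689 to 1765 CPM in PC9 and 2309 to 2322 CPM in PS(PC9). Summed fibroblast markers were at 10.4 to 11.02 and 27.4 to 30.8 CPM (2 tested, both higher, COL3A1 at 0), leukocyte markers at 1.01 to 1.29 and 0.410 to 0.508 CPM (2 tested, PTPRC and CD14, with edgeR adjusted p of 0.0315 and 0.0131, CD3E at 0) and endothelial markers at 8.05 to 8.82 and 3.25 to 3.80 CPM (2 tested, 1 lower). Their part in the members' differences was not tested.

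Copies of the members took few counts. HMGA1 has processed pseudogenes, and reads could be divided between it and them. HMGA1P8 had 14 to 26 counts per library, HMGA1P1 1 to 4, HMGA1P3 0 to 2 and HMGA1P2, HMGA1P5, HMGA1P6 and HMGA1P7 0, against 25229 to 96475 for HMGA1. RPSAP52, which overlaps HMGA2 on the other strand, had 0 to 3.

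The genes with the profile nearest to each member were found by the root-mean-square distance of centred log2 CPM over the 6 libraries, among 12284 genes with a mean log2 CPM above 1. Nearest to HMGA2 were ANO1 (0.0625), a calcium-activated chloride channel, and AKR1B10 (0.0689), an aldo-keto reductase. RHOF (0.0246) and ELFN2 (0.0339) were nearest to HMGA1. IGF2BP1 had PAPSS2 (0.0113) and B3GNTL1 (0.0215), IGF2BP2 had CFDP1 (0.0215) and CBLB (0.0281), and IGF2BP3 had STK17B (0.0159) and POLD3 (0.0161). As 2 groups dominate such a profile, these are mainly genes with a like fold change.

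Promoter motifs could be searched for 4 of the 6 members. RefSeq windows of 300 bases (GRCh38.p14, 250 before and 50 after a start) were at hand for HMGA1, IGF2BP2, IGF2BP3 and LIN28B, 7 windows in all. They were searched on both strands for the E-box CACGTG, which MYC and its partner MAX bind, for the AP-1 motif TGANTCA and for the GC box GGGCGG, found in 7.26%, 7.71% and 45% of 35116 such windows. IGF2BP3 was the only member with 2 E-boxes in a window, as had 0.664% of all windows, and its 250 bases before the start (chr7:23470492-23470741, minus strand) are shown with the E-boxes, 174 and 146 bases before the start, in capitals.

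IGF2BP3: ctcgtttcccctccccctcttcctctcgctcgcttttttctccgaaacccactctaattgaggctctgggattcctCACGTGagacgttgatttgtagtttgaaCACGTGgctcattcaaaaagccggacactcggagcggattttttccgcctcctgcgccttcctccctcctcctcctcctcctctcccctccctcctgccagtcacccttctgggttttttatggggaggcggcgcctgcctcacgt

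HMGA1 and IGF2BP2 had no E-box in their windows, and LIN28B had 1 at the second of its starts. The AP-1 motif stood once, in a window of IGF2BP2. GC boxes were found in windows of HMGA1, IGF2BP2 and LIN28B. A match is a description of letters and shows no binding.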

How the data were processed

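RNA of 3 PC9 and 3 PS(PC9) libraries was analysed, grouped and numbered by the sample labels, with dose and pooling from the study's methods. The authors enriched poly-A RNA, trimmed and filtered paired-end reads and pseudoaligned them with Kallisto 0.46.1 to Ensembl 96 transcripts of GRCh38.p13. The estimated counts were deposited without normalization, as whole numbers, once for gene symbols and once for transcripts. The libraries of another laboratory that the study combined with these were not analysed here, nor was Kallisto's estimate of its own assignment error.

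Counts were tested in R 4.3.3 with edgeR 4.0.16 (filterByExpr, TMM, glmQLFit and glmQLFTest, no block) over the whole tables, and transcript usage with diffSpliceDGE. The standard error is the size of the log2 fold change over the square root of F. The steps were tested on simulated data with a fixed dispersion, the same for genes and transcripts, and without Kallisto's assignment error. Recovery in the real libraries can therefore differ, above all for transcripts. Of 200 features changed by 1 on the log2 scale, the gene fit recovered 91% and the transcript fit 64.5%. The usage test recovered 98% of 200 genes with a transcript changed by 2. Of the calls, 2.67%, 1.53% and 2% were wrong, each above the limit of 0.01. The transcript fit can thus miss changes of this size. Total gene counts were 29476725 to 34893782. For HMGA2 in PS(PC9), at 202 to 237 counts per library, counting error is of about the size of the replicate spread. Floors cover counting error only. Of 188753 transcripts 167067 (95.8% of counts) were matched by identifier to GENCODE 44, of which 153003 had the same version, HMGA2-204 and IGF2BP2-202 not among them. Exact two-sided permutation tests over libraries could not go below p = 0.1. Beside the members, the text names the 2 largest rises and 2 largest falls of each list (adjusted p under 0.01, groups apart, mean log2 CPM above 1), preset regulators (LIN28A, TRIM71, DICER1, MYC, IGF1R, IGF2, DIS3L2) and the 2 nearest profiles of each member. Other list genes (among them AFP, IGF2R, PEG10, ROR1, CEACAM5, SALL4, AGO1, AGO2 and AGO3) and the genes rich in let-7 matches were named after their values were seen. Host genes of let-7, H19 and MEG3 were not analysed here, and some genes that the rule selects are not reported. The members, lists and analyses were chosen with earlier results of these data known. TPM, family shares, count ratios, coding forms, let-7 counts over all genes and promoter motifs were added after the design was written. Alternatives comprised limma 3.58.1 (voom), DESeq2 1.42.0, other normalizations, no filter, sums of transcript counts as gene counts, a replicate block, other limits and each library left out in turn. Figures were drawn with matplotlib 3.10.9.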

Additional observations from a re-analysis of the deposited data

How the results depend on the processing

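The fall of HMGA1, HMGA2, IGF2BP1, IGF2BP2 and IGF2BP3 kept its direction and its side of the limit in all 14 alternatives fitted for each gene, with log2 fold changes of −1.59 to −1.49, −2.44 to −2.35, −0.40 to −0.30, −0.70 to −0.61 and −0.49 to −0.41, and the largest adjusted p was 0.00107, for IGF2BP1. LIN28B had no count and no alternative value. The members that fell numbered 5 under every alternative but a fold change above 2, which left 2. Member transcripts that fell numbered 6, and 11 in DESeq2. Let-7 targets that fell numbered 5, 3 in DESeq2 and 2 to 6 with a library left out. m6A genes that fell numbered 2, and 4 when scaled by library size only. Oncofetal and imprinted genes that fell numbered 3, and 1 to 4 with a library left out. The difference in the share of counts on transcripts with a let-7 match was 0.326 points, and −0.706 to 1.02 with a library left out. The cause of these shifts was not tested, beyond the fewer samples or the added condition. The deviations of samples of the same number correlated with r = 0.124, 0.0236 and 0.0215. With 3 libraries per condition, these values cannot settle whether such samples were paired. PC9 replicate 2 correlated best with PS(PC9) replicate 3 (r = 0.0971). With a replicate block, 8671 genes were called instead of 8307, the members that fell remained 5, member transcripts that fell were 4, and the adjusted p of IGF2BP2 transcript usage was 0.27. Over alternatives that leave out a library the latter ran from 0.0433 to 0.451. Replicates of a condition differed by more than sampling noise (chi-square per degree of freedom 3.53 to 21.1), and depth limited what could be said of genes at or near 0 counts in a condition, LIN28B, LIN28A, TRIM71, IGF2 and CEACAM5 among them.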
